A study of Mus musculus with 12 samples.

Results

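The CCN family consists of secreted, cysteine-rich matricellular proteins, which sit in the extracellular matrix and bind integrins, heparan sulfate proteoglycans and growth factors rather than building the matrix themselves. Its members Cyr61 (Ccn1) and Ctgf (Ccn2) are textbook target genes of the co-activators YAP and TAZ with their DNA-binding TEAD partners, Ctgf is also a classical TGF-β target in fibrotic tissue, and Wisp1 (Ccn4) and Wisp2 (Ccn5) were named for their induction by Wnt-1. Nov (Ccn3) completes the set of 5 genes, which were picked by gene symbol from the 23282 gene rows of the count tables. All 5 symbols were present, and 4 of the 5 passed the filter on low counts and were tested among 12425 genes. Nov did not pass.

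RNA-seq was performed on C22 cells, a cloned mouse club cell line from H-2Kb-tsA58 mice, whose conditional immortalizing transgene is carried by the cells of every group. The 4 groups of 3 libraries were negative control cells (NC), the same cells exposed to TGF-β1 at 20 ng/ml during 24 h (NC + TGF-β1), cells transfected with siRNA against Pdcd5 (siPdcd5), and such knockdown cells exposed likewise (siPdcd5 + TGF-β1). The cells had been brought to the differentiated state and deprived of serum before TGF-β1 was added. The comparisons, some of which share libraries, ask how TGF-β1 and the loss of Pdcd5 changed the genes, and whether the response to TGF-β1 differed between knockdown and control cells. Levels are given in CPM, the read count of a gene scaled to a common library size with TMM factors, in a 3′ end assay in which a transcript is read near its poly(A) tail.

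Between 12809857 and 17714828 reads were counted per library, so that 3 counts, taken as the lowest level a library can show, correspond to 0.165 to 0.239 CPM. The level of Pdcd5 was at least 65.1 CPM in each of the 6 control libraries and at most 26.3 CPM in each of the 6 knockdown libraries, so every library matched its knockdown label. The defining club cell markers were close to absent, since the secretoglobin Scgb3a2 and the cytochrome Cyp2f2 had no count in any library and Scgb1a1 had 1 count in all, and the 5 club markers together reached at most 0.731 CPM. Other lists were mixed. Of the epithelial markers, Krt8 had 171 to 524 CPM and Krt18 373 to 1199 CPM, but Epcam had 1 count in all and Cdh1 1.91 to 4.03 CPM. The alveolar type 1 marker Pdpn had 230 to 442 CPM and Hopx 2 counts in all, and the basal marker Krt14 had 1.77 to 210 CPM and Krt5 6 counts. Of the 7 fibroblast markers 6 were tested. Col1a1 had 1695 to 6542 CPM, Pdgfra 3.39 to 5.93 CPM and Lum 1 count in all. The sum of the fibroblast markers was 3760 to 4005 CPM in NC, 7447 to 8064 in NC + TGF-β1, 2562 to 3137 in siPdcd5 and 5613 to 5971 in siPdcd5 + TGF-β1. This sum is carried by Col1a1 and Col3a1, and the list did not move as one. Dcn fell after TGF-β1 (log2 fold change −2.08 in NC cells) and rose after knockdown (0.59 without and 0.88 with TGF-β1), and Col1a2 rose after knockdown without TGF-β1 (log2 fold change 1.74), where 2 of the 6 rose and 2 fell with a median of 0.12. Of all genes 0.901% were called higher and 2.54% lower there (edgeR, adjusted p under 0.05), with a median of 0.02. The part of the marker genes in the CCN results was not tested, and in such bulk samples fewer cells of a type and less RNA per cell cannot be told apart. NC + TGF-β1 replicate 2 stood apart, with an SD over genes of its log2 deviation from the group mean of 0.334, against 0.202 to 0.285 in the other 11 libraries, and values of Ctgf and Cyr61 that changed most without it are given both ways.

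The genes lie on 4 chromosomes of GRCm38. Cyr61 is at chr3:145646976-145649981 on the minus strand, and the others are on the plus strand, with Ctgf at chr10:24595442-24598683, Nov at chr15:54745702-54754039, Wisp1 at chr15:66891320-66923201 and Wisp2 at chr2:163820861-163833146. The annotated gene Gm15270 overlaps the 5′ part of Ctgf on the other strand, but the last 1575 bases of Ctgf, where a 3′ end assay reads, lie outside the overlap. Gm15270 was not among the rows analysed. Of the 5 genes only Cyr61 had an entry in the RefSeq promoter table used, and its 250 bases before the transcript start are shown because Cyr61 is a YAP and TAZ target that rose with TGF-β1. They span chr3:145649986-145650235 of GRCm38.p6 and are written 5′ to 3′ on the minus strand, with capitals for the match to the TEAD motif GGAATG and for the match to the short cAMP response element TGACG, each on the opposite strand of the gene.
Cyr61 promoter: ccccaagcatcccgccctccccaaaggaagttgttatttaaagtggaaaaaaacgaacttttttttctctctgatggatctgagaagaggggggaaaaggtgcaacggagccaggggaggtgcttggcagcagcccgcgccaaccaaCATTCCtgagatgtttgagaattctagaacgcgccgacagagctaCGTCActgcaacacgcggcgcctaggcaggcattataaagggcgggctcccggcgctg
The match to GGAATG began 103 bases and the match to TGACG 58 bases before the transcript start. Searching both strands of 32851 RefSeq promoters of the same length, GGAATG was found in 12.6% and TGACG in 17.8%. Neither the SMAD core CAGAC nor the AP-1 motif TGANTCA matched the Cyr61 window, and these occurred in 42.2% and 6.75% of promoters. No motif overlapped another in this window, and the matches are letters in a sequence, not measured binding.

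Treatment with TGF-β1 raised the 4 tested CCN genes in NC cells and again in siPdcd5 cells. After Pdcd5 knockdown, Wisp2 fell in cells without TGF-β1, and in cells with TGF-β1 no CCN gene passed the test. The fold change after TGF-β1 in NC cells was 4.82 for Ctgf, 3.05 for Wisp2, 2.09 for Wisp1 and 1.80 for Cyr61. These were changes of each gene against itself, and levels are not compared between genes because counts depend on each transcript. Among all 12425 genes, 15.3% were called in NC cells, with 8.57% called higher, and in siPdcd5 cells 16.1% were called, with 8.5% higher.

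**Figure D1:**
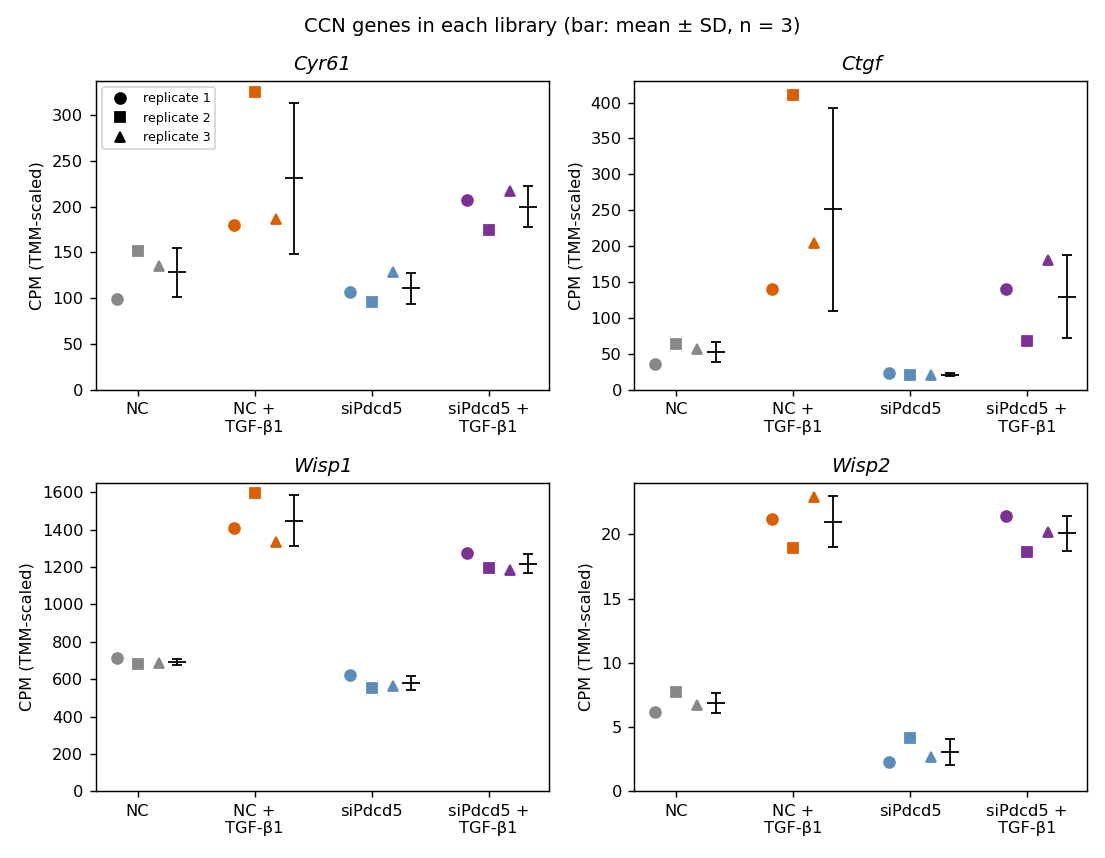
Levels of 4 CCN genes in the 12 libraries, 1 panel per gene, with CPM on a linear axis from 0 against the 4 groups; each point is a library and each bar the group mean ± SD (n = 3). In each panel the libraries with TGF-β1 lie above those without it in cells of the same siRNA, and Ctgf is the most scattered, from 140 to 410 CPM in NC + TGF-β1. The share of all genes that lie apart in this way was not counted.

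Ctgf encodes connective tissue growth factor, which promotes matrix production and fibroblast activation. In CPM, its level was 36.3, 63.5 and 56.7 in NC replicates 1 to 3 and 140, 410 and 204 in NC + TGF-β1. It was 23.0, 20.5 and 20.1 in siPdcd5 and 141, 68.0 and 181 in siPdcd5 + TGF-β1. Every TGF-β1 library was above every untreated library of either siRNA group, while the groups with TGF-β1 overlapped one another, and the siPdcd5 libraries lay below the NC libraries. For Ctgf and for the genes below, how many of all genes lie apart between groups in the same way was not counted. The means were 52.2 ± 14.1 CPM for NC, 252 ± 141 for NC + TGF-β1, 21.2 ± 1.56 for siPdcd5 and 130 ± 57.1 for siPdcd5 + TGF-β1 (SD, n = 3 each).

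By the quasi-likelihood test of edgeR, adjusted after Benjamini-Hochberg over all genes, which is the test behind every adjusted p here unless another is named, Ctgf rose by 2.27 on the log2 scale after TGF-β1 in NC cells (standard error 0.38, 95% interval 1.46 to 3.08, adjusted p = 6.54e-04). In siPdcd5 cells edgeR's log2 fold change was 2.62 (standard error 0.39, adjusted p = 2.74e-04), a 6.14-fold rise. Without NC + TGF-β1 replicate 2, the change in NC cells was 1.72 (adjusted p = 2.40e-04, same edgeR test). Separate cultures are not stated for the replicates, so the p-values measure only the spread between these libraries, which may be technical.

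After knockdown without TGF-β1, the log2 fold change of Ctgf was −1.30 (95% interval −2.12 to −0.48). This did not pass edgeR's test (adjusted p = 0.0881). The fall passed in 2 of 13 alternatives, with the same test on the untreated libraries alone (adjusted p = 0.00168) and with no filter on low counts (0.0110 in edgeR). It did not pass with DESeq2's Wald test (adjusted p = 0.0580), and leaving out 1 library gave edgeR adjusted p from 0.101 to 0.289. After knockdown with TGF-β1, the log2 fold change was −0.95 (95% interval −1.72 to −0.18, adjusted p = 0.235 in edgeR), and the groups overlapped. This last value depended on 2 libraries with opposite positions. Without NC + TGF-β1 replicate 2, the highest, it was −0.41 (adjusted p = 0.491 in edgeR), and without siPdcd5 + TGF-β1 replicate 2, the lowest, it was −0.65.

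Cyr61 encodes a cysteine-rich angiogenic inducer that supports cell adhesion through integrins. Its level was 99.2, 151 and 135 CPM in the NC replicates and 180, 325 and 187 CPM in the NC + TGF-β1 replicates. It was 107, 96.0 and 129 CPM in siPdcd5 and 207, 174 and 217 CPM in siPdcd5 + TGF-β1. The libraries with TGF-β1 all lay above those without it, the highest again being NC + TGF-β1 replicate 2, whereas NC and siPdcd5 overlapped with and without TGF-β1. Group means were 128 ± 26.5, 231 ± 82.1, 111 ± 16.7 and 200 ± 22.5 CPM (SD, n = 3 each) in the order NC, NC + TGF-β1, siPdcd5, siPdcd5 + TGF-β1.

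Cyr61 rose by 0.85 on the log2 scale after TGF-β1 in NC cells (standard error 0.21, 95% interval 0.40 to 1.30, edgeR adjusted p = 0.0122) and by 0.85 in siPdcd5 cells (standard error 0.21, edgeR adjusted p = 0.0122). The rise in NC cells was 0.52 without NC + TGF-β1 replicate 2 (edgeR adjusted p = 0.0211), and the change was 0.69 without NC replicate 1, which did not pass (edgeR adjusted p = 0.0706). In siPdcd5 cells it missed the threshold without siPdcd5 replicate 2 (0.76, edgeR adjusted p = 0.0575) and without siPdcd5 + TGF-β1 replicate 3 (0.79, edgeR adjusted p = 0.0505). After knockdown the log2 fold change of Cyr61 was −0.21 both without TGF-β1 (95% interval −0.66 to 0.24, edgeR adjusted p = 0.702) and with it (95% interval −0.66 to 0.24, edgeR adjusted p = 0.733). Without NC + TGF-β1 replicate 2 the second of these was 0.12, with the opposite sign.

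Wisp1 encodes a secreted protein that acts on fibroblasts and osteoblasts and was first described downstream of Wnt and β-catenin. Its level was 711, 683 and 684 CPM in NC and 1408, 1598 and 1335 CPM in NC + TGF-β1. It was 622, 555 and 561 CPM in siPdcd5 and 1274, 1193 and 1186 CPM in siPdcd5 + TGF-β1. No 2 groups overlapped, since both pairs of siRNA groups and both pairs of treatment groups were apart in every library. The means were 693 ± 16.0, 1447 ± 135, 579 ± 36.8 and 1218 ± 49.3 CPM (SD, n = 3 each).

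After TGF-β1, Wisp1 rose by 1.06 on the log2 scale in NC cells (standard error 0.09, edgeR adjusted p = 1.19e-06) and by 1.07 in siPdcd5 cells (standard error 0.09, edgeR adjusted p = 1.21e-06). After knockdown its log2 fold change was −0.26 without TGF-β1 (95% interval −0.45 to −0.07) and −0.25 with it (95% interval −0.44 to −0.06). Neither difference passed edgeR's test (adjusted p = 0.150 and 0.207). How many of all genes separate between groups as Wisp1 did was not counted. With DESeq2's Wald test, the value without TGF-β1 was −0.27 and passed (adjusted p = 0.0402).

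Wisp2 encodes a shorter family member that lacks the C-terminal cystine-knot module of its relatives. It had few reads, with 81, 104 and 88 counts in NC, 266, 253 and 313 in NC + TGF-β1, 31, 76 and 42 in siPdcd5, and 319, 242 and 300 in siPdcd5 + TGF-β1. This corresponded to 6.16, 7.71 and 6.76 CPM in NC, 21.2, 18.9 and 22.9 CPM in NC + TGF-β1, 2.29, 4.19 and 2.70 CPM in siPdcd5, and 21.4, 18.7 and 20.2 CPM in siPdcd5 + TGF-β1. The siPdcd5 libraries were the lowest, the NC libraries were next, and the 2 TGF-β1 groups overlapped above both. The means were 6.88 ± 0.784, 21.0 ± 1.99, 3.06 ± 1.00 and 20.1 ± 1.37 CPM (SD, n = 3 each).

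Without TGF-β1, knockdown lowered Wisp2 with a log2 fold change of −1.14 (standard error 0.20, 95% interval −1.58 to −0.71, edgeR adjusted p = 0.00530), a level 2.21-fold lower. It was the only CCN gene called in that comparison, in which 3.44% of all genes were called and 2.54% called lower. After TGF-β1, Wisp2 rose by 1.61 in NC cells (standard error 0.18, adjusted p = 1.74e-05, same edgeR test) and by 2.69 in siPdcd5 cells (standard error 0.19, adjusted p = 2.56e-07). With TGF-β1, knockdown left a log2 fold change of −0.06 (95% interval −0.42 to 0.29, adjusted p = 0.919 by edgeR). In the comparison of knockdown with control cells under TGF-β1, 0 of the 4 tested CCN genes were called, as were 1.55% of all genes.

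Nov encodes a family member best known from neural and hematopoietic tissue. It had 3 counts in NC replicate 1, 1 in an NC + TGF-β1 library, 2 in an siPdcd5 + TGF-β1 library and none in the other 9, a total of 6. No library exceeded the floor of 3 counts, so Nov gave no fold change, and no difference was detectable at this depth. This floor covers counting error only, as the reads carry no molecular identifiers, whereas the 95% intervals of fold changes come from edgeR's fit and include the spread between libraries.

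**Figure D2:**
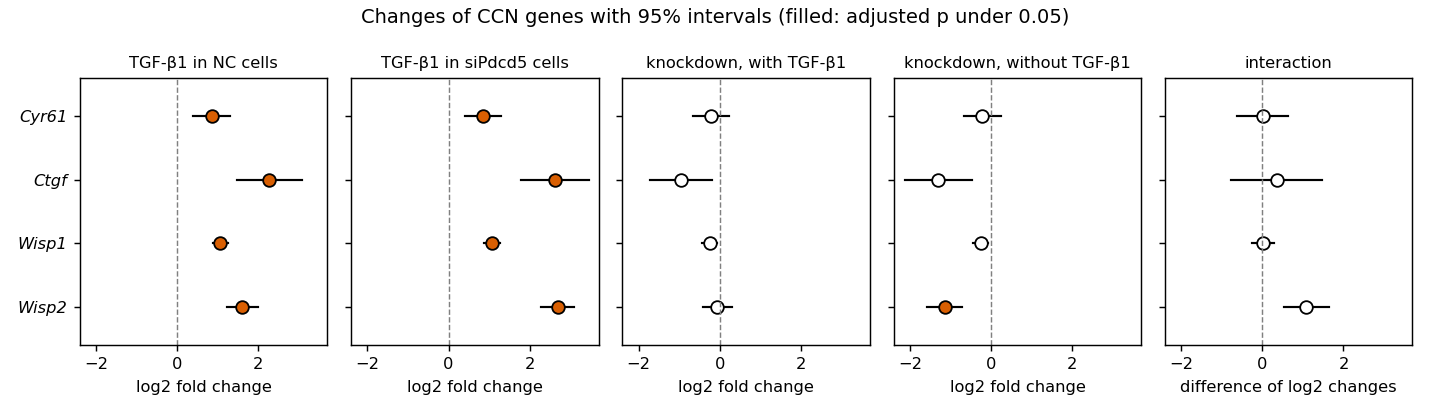
Log2 fold change of Cyr61, Ctgf, Wisp1 and Wisp2 in each comparison, with bars for the 95% interval of edgeR's fit and filled points for an adjusted p under 0.05. All 8 changes after TGF-β1 are filled and above 0, the single filled knockdown value is Wisp2 without TGF-β1 at −1.14, and no interaction is filled.

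The responses of NC and siPdcd5 cells to TGF-β1 were compared through their interaction, which subtracts the log2 change in NC cells from that in siPdcd5 cells. It was 0.00 for Cyr61 (95% interval −0.63 to 0.64), 0.35 for Ctgf (95% interval −0.76 to 1.46) and 0.01 for Wisp1 (95% interval −0.26 to 0.28). The interval for Wisp1 was the narrowest, whereas that for Ctgf spanned differences of over 1 in size. Leaving out 1 library, the Ctgf value ranged from 0.04 without siPdcd5 + TGF-β1 replicate 3 to 0.90 without NC + TGF-β1 replicate 2. For Wisp2 it was 1.08 (95% interval 0.52 to 1.64, edgeR adjusted p = 0.736). edgeR called 0% of genes for the interaction, with 638 genes at an unadjusted p under 0.05 and a smallest adjusted p of 0.213. DESeq2's Wald test gave Wisp2 1.09 (adjusted p = 0.0419), 1 of 15 genes it called of the 10257 to which it gave an adjusted p, or 0.146%. The fitted changes of Wisp2 in siPdcd5 cells start from the lower untreated level, and the levels reached with TGF-β1 overlapped.

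The 4 genes also differed in how far replicates scattered. Spread was compared as edgeR's biological coefficient of variation, which allows for count level, among the 9180 genes whose mean log2 CPM reached 3. It was 0.304 for Ctgf, above 99.8% of these genes, 0.182 for Cyr61 (above 93.1%), 0.127 for Wisp2 (above 65.8%) and 0.0871 for Wisp1 (above 11.8%), with a median of 0.112. On leaving out NC + TGF-β1 replicate 2 it was 0.216 for Ctgf, still above 99.7% of genes, and 0.119 for Cyr61 (above 82.2%), with a median of 0.0951. Within NC + TGF-β1 the highest Ctgf library, replicate 2, was 2.94 times the lowest, and within siPdcd5 + TGF-β1 it was 2.66 times. In siPdcd5 the coefficient of variation of Ctgf was 7.37%, against 56.2% in NC + TGF-β1.

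**Figure D3:**
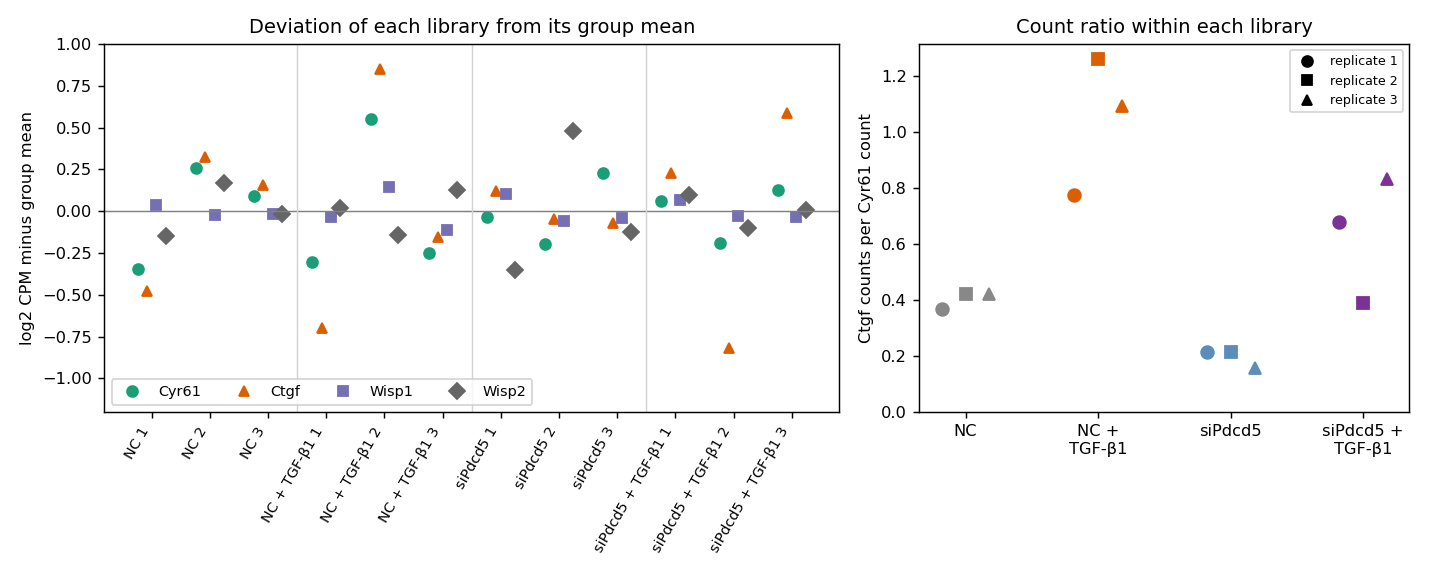
Left, log2 CPM of each library minus its group mean for the 4 tested CCN genes; right, Ctgf counts per Cyr61 count in each library by group. Ctgf and Cyr61 deviate to the same side in most libraries, and the ratio runs from 0.156 in an siPdcd5 library to 1.26 in an NC + TGF-β1 library.

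Replicates of Cyr61 and Ctgf tended to deviate to the same side. The Pearson r of their deviations from the group means was 0.83 over the 12 libraries, against 0.46 for Cyr61 and Wisp1, 0.43 for Ctgf and Wisp1, 0.02 for Ctgf and Wisp2, −0.17 for Cyr61 and Wisp2 and −0.56 for Wisp1 and Wisp2. Genes outside the family followed these deviations more closely, as Gtpbp2 did for Ctgf (0.991) and Tpmt for Cyr61 (0.974). Each of these 2 genes was the closest of 9113, so they cannot tell how common an r of 0.83 is. The rank of the r of Cyr61 and Ctgf among all genes was not taken. Over the 11 libraries other than NC + TGF-β1 replicate 2, r for Cyr61 and Ctgf was 0.69, and both genes lost their positive r with Wisp1 (−0.21 and −0.07). Over the levels themselves, which include the treatment, r lay between 0.81 and 0.94 for the 6 pairs. These are descriptions over 12 points that share libraries and scaling. The fitted changes of Ctgf were larger than those of Cyr61 with each factor, though after knockdown neither gene passed edgeR's test. The count ratio of Ctgf to Cyr61 was 0.367, 0.420 and 0.421 in NC and 0.776, 1.26 and 1.09 in NC + TGF-β1. It was 0.214, 0.213 and 0.156 in siPdcd5 and 0.679, 0.390 and 0.832 in siPdcd5 + TGF-β1. A ratio within a library does not depend on how the library was scaled, though it was examined after these values were seen. Its mean log2 difference was 1.35 for TGF-β1 in NC cells, 1.65 for TGF-β1 in siPdcd5 cells and −1.06 for knockdown without TGF-β1, with no overlap and an exact two-sided permutation p of 0.1 for each, the smallest that 3 against 3 can give. For knockdown with TGF-β1 it was −0.76 with overlapping groups (exact permutation p = 0.2).

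The genes whose levels followed each CCN gene most closely were sought among 9113 genes over the 12 libraries. For Ctgf they were Actn1 (Pearson r 0.973), which encodes the actin cross-linker α-actinin 1, Igfbp7 (0.972), a secreted relative of the IGF-binding proteins, and Cebpg (0.972). Actn1 had 580 to 632 CPM in NC, 994 to 1167 in NC + TGF-β1, 425 to 502 in siPdcd5 and 764 to 898 in siPdcd5 + TGF-β1, so that no groups overlapped. For Cyr61 they were Tpst2 (0.953), Cdr2 (0.938) and Klf10 (0.932), a TGF-β-inducible transcription factor. For Wisp1, Itgb5 (0.999) and Sh3glb1 (0.996) were among the closest, and for Wisp2, Lox (0.984), which cross-links collagen, Apbb2 (0.983) and Luzp1 (0.982). Deviations from the group means, which leave the treatment out, gave Gtpbp2 (0.991), Sdhd (0.990) and Pfn1 (0.986) for Ctgf and Tpmt (0.974), Nabp1 (0.938) and Bnip3l (0.928) for Cyr61. They gave Itgb5, Wtip and Cct2 (0.985 each) for Wisp1, and Cdh2 (0.964), Fgf18 (0.952) and 2700081O15Rik (0.945) for Wisp2. Itgb5 was named by both measures for Wisp1, but with Spearman's rho 0 of the 3 genes closest to Wisp1 by deviations stayed among the first 10. By level, Spearman's rho kept 0 of 3 for Cyr61, 1 for Ctgf, 1 for Wisp1 and 0 for Wisp2. With NC + TGF-β1 replicate 2 left out, the first 10 kept 2 of 3 genes by level and 1 of 3 by deviations for Cyr61, and 3 of 3 by each measure for the other CCN genes.

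CCN proteins bind cells mainly through integrins and the receptor Lrp1. Of 12 listed receptors and partners 10 were tested, and 5 rose and 0 fell after TGF-β1 in NC cells. Their median log2 fold change was 0.46, against 0.00 for all genes, of which 8.57% were called higher. In siPdcd5 cells 4 rose and 0 fell (median 0.37, all genes −0.03 with 8.5% called higher). Leaving out NC + TGF-β1 replicate 2 made it 6 in NC cells, with Itgav added. Itgb5, the β chain of the vitronectin receptor αvβ5, had 144 to 150 CPM in NC, 429 to 554 in NC + TGF-β1, 105 to 127 in siPdcd5 and 370 to 409 in siPdcd5 + TGF-β1. It rose by 1.72 in NC cells (edgeR adjusted p = 6.39e-08) and 1.75 in siPdcd5 cells (edgeR adjusted p = 5.99e-08). The other called genes in NC cells were Itgb1, Itgb3, Itga5 and Lrp1, and in siPdcd5 cells Itgb1, Itgb3 and Itga5. After knockdown none of the 10 passed, with medians of −0.08 without and −0.22 with TGF-β1. All genes had medians of 0.02 and −0.02, and 3.44% and 1.55% of them were called.

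YAP, TAZ and TEAD factors transmit cell shape and matrix stiffness to Cyr61 and Ctgf. All 6 listed factors were tested and 0 of 6 passed the test after TGF-β1 in either cell group (medians −0.12 and −0.12). Among all genes 15.3% were called in NC and 16.1% in siPdcd5 cells. Tead1, which encodes a TEAD factor, had a log2 fold change of −0.25 in NC cells (95% interval −0.44 to −0.06, edgeR adjusted p = 0.0738), and it was called once NC + TGF-β1 replicate 2 was left out. Yap1, at 87.4 CPM on average in NC, had log2 fold changes of −0.03 in NC and −0.27 in siPdcd5 cells. Wwtr1, which encodes TAZ, fell by 0.45 on the log2 scale after knockdown without TGF-β1 (258 ± 6.73 to 189 ± 9.25 CPM, SD, n = 3, edgeR adjusted p = 0.00413), and was the 1 factor of 6 called there. The share of all genes called there was 3.44%. With TGF-β1 the log2 fold change of Wwtr1 after knockdown was −0.29 (edgeR adjusted p = 0.0829).

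Of 21 other YAP and TAZ targets 18 were tested. Ankrd1, Foxf2, Gadd45a, Ccdc80 and Nuak2 rose and Crim1 and Myof fell after TGF-β1 in NC cells, with a median of 0.13 over the 18. Of all genes 8.57% were called higher and 6.77% lower. Leaving out NC + TGF-β1 replicate 2 gave 4 of the 18 that rose and 3 that fell, since Foxf2 no longer passed and Amotl2 fell. In siPdcd5 cells 5 also rose and 2 fell, with a median of 0.15, and 8.5% and 7.61% of all genes were called higher and lower. Ankrd1, a cardiac and stress-responsive ankyrin repeat protein, rose by 0.62 in NC cells (edgeR adjusted p = 1.46e-04) and 0.84 in siPdcd5 cells (edgeR adjusted p = 9.65e-06). Gadd45a, a growth arrest gene, rose by 2.32 and 1.90 and was the largest rise of the list in both, while the largest falls were those of Crim1 in NC cells (−0.67) and Myof in siPdcd5 cells (−0.50). After knockdown without TGF-β1, 3 of the 18 fell (Ajuba, Crim1 and Ccdc80) and 0 rose, with a median of −0.29 against 0.02 for all genes. Of all genes 2.54% were called lower there, and 1.22% after knockdown with TGF-β1. With TGF-β1, 1 gene of the list fell, Ccdc80, by 0.60 (edgeR adjusted p = 8.34e-04), and the list's median was −0.21. Igfbp3 was also called, higher, once NC + TGF-β1 replicate 2 was left out.

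The list of TGF-β receptors, SMADs and feedback genes had all its 15 members tested. Smad7, Ski, Skil, Tgif1, Pmepa1 and Smurf1, which restrain SMAD signalling, rose in NC cells, and Smad6, an inhibitory SMAD of the BMP branch, fell by 1.28 (median 0.24). Pmepa1 rose most, by 2.72 in NC cells and 2.67 in siPdcd5 cells, where 5 rose and 1 fell (median 0.15). Smad3, the transducing SMAD, had log2 fold changes of 0.13 in NC and −0.10 in siPdcd5 cells (edgeR adjusted p = 0.387 and 0.509). Smad6 and Smad7 fell after knockdown without TGF-β1, by 0.67 and 0.45 (edgeR adjusted p = 0.0122 and 0.0492), and no gene of this list passed with TGF-β1. The list's medians after knockdown were −0.05 and −0.02. Of all genes 15.3% were called after TGF-β1 in NC cells, 16.1% in siPdcd5 cells, and 3.44% after knockdown without TGF-β1.

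Serum response factor (SRF) and its actin-regulated cofactors control contractile genes, and Cyr61 and Ctgf are among their known targets. Of 11 listed genes 8 were tested, and Acta2, Tpm1 and Fhl2 rose after TGF-β1 in NC cells (median 0.35) and in siPdcd5 cells, where Mkl2 fell (median 0.26). Without NC + TGF-β1 replicate 2, 9 genes of the list were tested and the NC call of Fhl2 was lost. Actg2 was then called higher, but it was not among the 8 genes tested with all libraries. Acta2, smooth muscle α-actin, rose by 1.48 in NC cells and 1.53 in siPdcd5 cells. It fell by 1.00 after knockdown without TGF-β1 (543 ± 27.7 to 272 ± 27.7 CPM, SD, n = 3, edgeR adjusted p = 2.68e-05) and by 0.94 with it (edgeR adjusted p = 1.04e-04). Tpm1 and Fhl2 also fell without TGF-β1, so that 3 of the 8 were called there (median −0.27) and 1 of 8 with TGF-β1 (median −0.20). Of all genes 3.44% and 1.55% were called in these knockdown comparisons, and 15.3% and 16.1% after TGF-β1 in NC and siPdcd5 cells.

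Immediate-early genes often respond along with Cyr61. Of 14 listed 13 were tested, and Fosl2, Jun, Junb, Ier2 and Atf3 rose after TGF-β1 in NC cells and 0 fell (median 0.44). The call of Ier2 was lost, and Jund gained, without NC + TGF-β1 replicate 2. In siPdcd5 cells 4 rose (median 0.33). Junb, an AP-1 subunit, rose by 1.17 and 1.04. None of the 13 was called after knockdown, with medians of −0.06 without and −0.08 with TGF-β1. Among all genes 8.57% were called higher after TGF-β1 in NC cells and 8.5% in siPdcd5 cells. The shares called after knockdown were 3.44% without and 1.55% with TGF-β1.

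**Figure D4:**
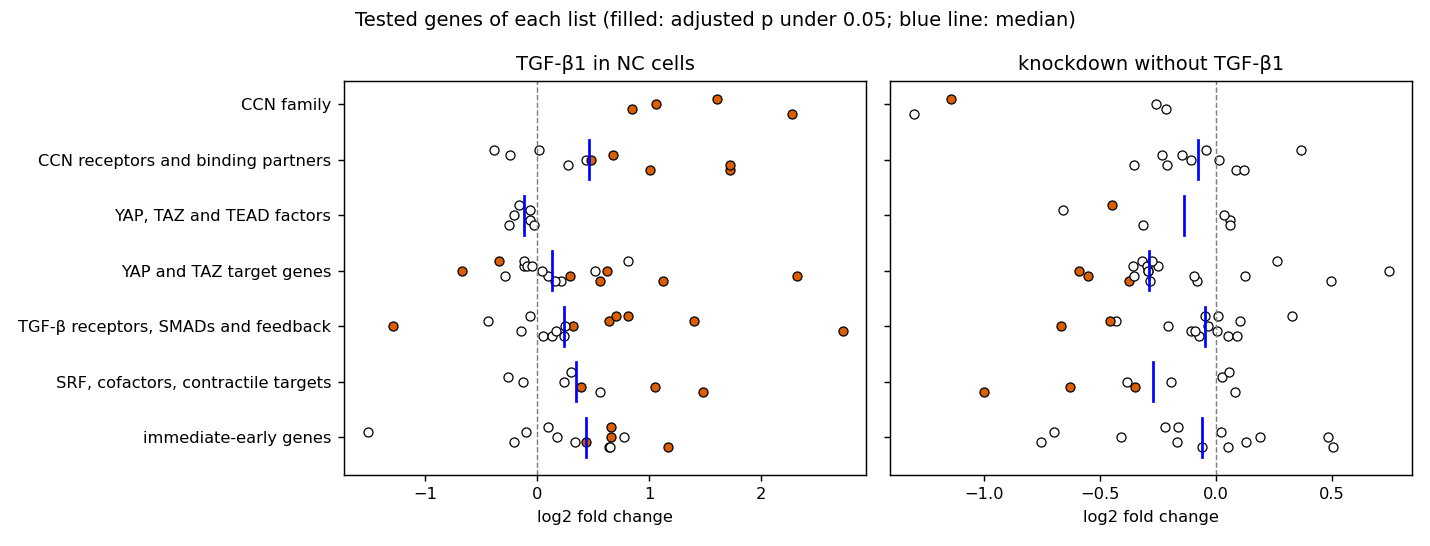
Log2 fold changes of the tested genes of the CCN family and of the 6 related lists after TGF-β1 in NC cells (left) and after knockdown without TGF-β1 (right), filled at an adjusted p under 0.05, with a blue line at the median of each list other than the CCN family. On the left the 4 CCN genes are filled from 0.85 to 2.27, and on the right Wisp2 is the filled CCN gene, at −1.14.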

How the data were processed

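RNA of C22 cells was profiled by QuantSeq 3′ mRNA-seq in 12 libraries, which were assigned to 4 groups by their labels. Per the study's methods and the submitters' processing notes, the authors aligned reads with Bowtie2 to mm10, tallied unique and multiple alignments with Bedtools, and deposited whole read counts per gene symbol without normalization. The annotation and use of strand are not given in the sources used here. The study's quantile normalization is not part of these counts.

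Rows were filtered with filterByExpr of edgeR 4.0.16 (R 4.3.3), libraries scaled by TMM, and 1 quasi-likelihood model with 4 groups fitted to 12425 genes, with a common biological coefficient of variation of 0.132. Each contrast was adjusted by Benjamini-Hochberg and called at 0.05. The prior count in log2 CPM was 2. The 79 rows whose symbol repeats were kept as separate rows. Totals of 12809857 to 17714828 counts set the depth, with 3 counts as the floor. The fit was tested on simulated data with known changes.

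Members, lists and tests were chosen with earlier results of these data known. The text names all 5 members, Pdcd5, from each related list the largest called rise and fall in each comparison (mean log2 CPM 3 or above), Yap1, Wwtr1, Smad3, Smad7, Ankrd1 and Itgb5, and the 3 genes most like each tested member. Other genes named from the lists, and markers, were picked once their values were known. One gene selected by this rule is not reported here. The alternatives comprised scaling by the upper quartile, limma-trend (limma 3.58.1) after quantile normalization, DESeq2 1.42.0, other filters, only the compared libraries, each library left out, replicate numbers as a block, CPM over total counts, a prior count of 0.5, and Spearman's rho. Positions come from GENCODE for GRCm38, matched by symbol, and the promoter from RefSeq for GRCm38.p6.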

Additional observations from a re-analysis of the deposited data

Results flagged for a closer look

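The response of Wisp2 to TGF-β1 differed between siPdcd5 and NC cells by 1.08 on the log2 scale (2.69 against 1.61), by a test of the difference itself that passed in DESeq2 (1.09, adjusted p = 0.0419) and not in the quasi-likelihood test of edgeR (Benjamini-Hochberg adjusted p = 0.736). The difference rests on 31, 76 and 42 counts in the siPdcd5 libraries.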

How the results depend on the processing

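Of 280 re-computed member values, 257 kept their direction and side of the threshold, 4 came to pass it, 3 no longer passed it and 16 changed sign, all 16 on leaving out 1 library and for changes that passed no test. Knockdown without TGF-β1 called 2 members, not 1, with no filter on low counts, with DESeq2 and with only the 6 libraries compared. These added Ctgf (−1.31, no filter, and −1.30, 6 libraries) or Wisp1 (−0.27, DESeq2). DESeq2 called 1 member for the interaction, Wisp2 (1.09), and 15 genes against 0. With 1 library left out, Cyr61 ranged from 0.52 to 1.00 after TGF-β1 in NC cells, from 0.76 to 0.97 in siPdcd5 cells, from −0.36 to 0.12 for knockdown with TGF-β1 and from −0.15 to 0.34 for the interaction. Ctgf ranged from 0.04 to 0.90 for the interaction. Over these, Wisp1 ranged from −0.052 to 0.087 for the interaction and Wisp2 from −0.13 to 7.6e-05 for knockdown with TGF-β1. The cause was not tested.

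The replicate numbers come from the labels, and same-numbered libraries are not stated to share a culture. Their deviations did not correlate above 0.1 in every pair (r from −0.32 to 0.17), so the numbers were not taken to pair the samples. The replicate block changed the call of 0 members, with 4, 4, 0, 1 and 0 called in the 5 comparisons (Wisp2 after knockdown without TGF-β1 −1.15), and moved the genes called for knockdown with TGF-β1 from 192 to 107. That count was 44 with only 6 libraries and 458 with DESeq2, and for knockdown without TGF-β1 it went from 427 to 714 with DESeq2. With Spearman's rho, at most 1 of the 3 closest genes by level stayed among the first 10 for Cyr61, Ctgf, Wisp1 and Wisp2, and by deviations 2, 3, 0 and 3 did. Without NC + TGF-β1 replicate 2, a choice made after seeing the data, the r of deviations changed sign for Cyr61 and Wisp1 (−0.21), Cyr61 and Wisp2 (0.0346) and Ctgf and Wisp1 (−0.0692). Depth limited Nov, at or under 3 counts.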

Other observations

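Wisp3 (Ccn6), the remaining relative of the family, had 35 counts over the 12 libraries, with at most 6 in any one and none in 2 of them, and did not pass the filter on low counts.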
